A study of Mus musculus with 4 samples.

Results

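The inner root sheath (IRS) keratins and trichohyalin were followed through mouse dorsal skin by spatial transcriptomics. The set was fixed by gene symbol and held 8 of 32286 features: the type I keratins *Krt25*, *Krt26*, *Krt27* and *Krt28*, the type II keratins *Krt71*, *Krt72* and *Krt73*, and *Tchh*, which encodes trichohyalin. All 8 were measured and all 8 passed the filter on low counts in every comparison. Dorsal skin was taken at P38 from 3 *Krox20-CreERT; R26-tdTomato* mice, a *CreERT* knock-in line carrying a tdTomato reporter, in which recombination was induced with 4-hydroxytamoxifen at P2. There was no untreated or uninduced group, so the comparisons are between positions within the skin. Each of 4 slices carried 1 frozen section of each mouse, and the slices are therefore technical replicates. The SDs and permutation p below measure the spread between slices, except SDs given across spots. The SEs and p of the gene tests (edgeR) measure the spread left once slice is taken as a block. None of them covers differences between mice. The authors left a further section out of their own analysis for its distorted structure, and since the labels do not identify it all spots were used.

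The IRS is the rigid sleeve that surrounds the growing hair and guides it toward the skin surface. Its cells are born in the matrix at the base of the follicle, move upward, fill with keratin and die below the opening of the sebaceous gland. Keratin filaments are built from pairs of a type I and a type II chain, so neither type is known to form filaments alone, and the genes of each type lie in a cluster of their own. *Krt25*, *Krt27*, *Krt28* and *Krt71* are known from all layers of the IRS, whereas *Krt26*, *Krt72* and *Krt73* are known from its innermost layer, the cuticle. Trichohyalin collects in granules in the IRS and in the medulla of the hair shaft, is modified by peptidylarginine deiminases and is then cross-linked to keratin by transglutaminases.

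In mouse the type I members lie side by side on chromosome 11, the type II members on chromosome 15 and *Tchh* on chromosome 3. In the RefSeq annotation of GRCm38.p6, the assembly also named mm10, *Krt25* spans chr11:99315516-99322951, *Krt26* chr11:99328484-99337965, *Krt27* chr11:99345565-99351118 and *Krt28* chr11:99365007-99374903. *Krt71* spans chr15:101733949-101743097, *Krt72* chr15:101776172-101786520 and *Krt73* chr15:101793304-101802360, and these 7 genes are on the minus strand. *Tchh* spans chr3:93442330-93449077 on the plus strand. The 250 bases before the start of 4 keratin genes are shown because the results turn on these pairs, whose ratio changed with depth, *Krt25* and *Krt27* among the type I members and *Krt73* and *Krt72* among the type II members. The bases come from RefSeq and are written 5′ to 3′ along the gene, with every TATAAA on the gene's strand and every GATAA on either strand in capitals.
Krt25, chr11:99322952-99323201, minus strand: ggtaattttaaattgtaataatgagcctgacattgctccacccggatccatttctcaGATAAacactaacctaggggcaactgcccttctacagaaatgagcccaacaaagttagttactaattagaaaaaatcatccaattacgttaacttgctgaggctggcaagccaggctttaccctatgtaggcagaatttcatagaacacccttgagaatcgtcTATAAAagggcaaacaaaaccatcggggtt
Krt27, chr11:99351119-99351368, minus strand: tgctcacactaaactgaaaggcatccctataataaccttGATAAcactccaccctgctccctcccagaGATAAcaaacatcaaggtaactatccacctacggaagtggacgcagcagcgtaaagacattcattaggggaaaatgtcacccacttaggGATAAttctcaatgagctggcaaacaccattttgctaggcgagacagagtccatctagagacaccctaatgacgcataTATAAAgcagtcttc
Krt72, chr15:101786521-101786770, minus strand: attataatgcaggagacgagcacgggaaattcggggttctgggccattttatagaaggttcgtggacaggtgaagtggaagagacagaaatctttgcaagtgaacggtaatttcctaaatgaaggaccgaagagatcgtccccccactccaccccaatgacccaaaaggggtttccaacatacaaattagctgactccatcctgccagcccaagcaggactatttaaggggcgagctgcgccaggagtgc
Krt73, chr15:101802361-101802610, minus strand: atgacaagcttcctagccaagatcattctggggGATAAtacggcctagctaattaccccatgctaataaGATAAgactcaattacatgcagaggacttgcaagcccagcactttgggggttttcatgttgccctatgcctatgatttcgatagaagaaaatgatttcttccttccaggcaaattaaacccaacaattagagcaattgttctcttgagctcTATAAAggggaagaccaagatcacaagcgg
TATAAA, the core of the TATA box, was present before the start of 6 of the 8 genes and in 8.12% of 27025 promoters of the same length. It began 30 bases before the start in *Krt25*, *Krt26*, *Krt28* and *Krt73*, 15 bases before it in *Krt27* and 40 bases before it in *Krt71*, and *Krt26* held another copy 158 bases before it. GATAA, which holds the core that GATA factors bind and was also searched as TTATC on the other strand, was present in 6 of the 8 genes and in 23.0% of all promoters, with 3 copies in *Krt27* and 2 in *Krt73*. CTTTGA, a core that LEF/TCF factors bind, was searched on both strands and was present in 2 of the 8 genes, *Krt28* and *Tchh*, and in 14.1% of all promoters. The window before *Krt72* held neither TATAAA nor GATAA, and no TATAAA and GATAA overlapped in any of the 8. These matches describe the letters alone.

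Levels are given as CPM, which is how many of every 1000000 unique molecular identifiers (UMIs, single captured transcripts) in a group of spots belonged to the gene. A spot covers several cells and so several layers of a follicle. Position is given in grid steps, counted along the hexagonal grid from a spot to the nearest spot of the epidermal region, which was a cluster of 870 spots led by *Lor*, *Krt10* and *Krt1*. The slices held between 1462 and 1752 spots and 19393026 to 26910422 UMIs. Slice 1 was the deepest, at a median of 14627 UMIs per spot (11662 to 11989 for slices 2 to 4), and 97.1% of the 280 spots of a cluster led by *Atp2c2* and *Krtap19-1* came from it. Barcodes are set by the slide, and 1842 of 2485 occurred in more than 1 slice.

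The 8 genes were present almost everywhere in the skin. Together they held 3.39% to 3.82% of all UMIs of a slice. The slices held 12872, 11061, 10981 and 9688 UMIs of *Krt73*, the fewest counted for a member, and 395780, 306897, 256144 and 255498 UMIs of *Tchh*, the most counted. Reads were counted at the 3′ end of transcripts and not divided by length, so UMIs, shares and ratios of different genes do not rank their levels and are read only for how they changed with place. A UMI of *Krt26* was found in 91.8% of spots and of *Krt73* in 90.2% and of each other member in 98.6% or more. After each spot was thinned to 5000 UMIs, *Krt26* was found in 78.0% of all spots and in 77.3% of spots of the skeletal muscle region, which should lack it, and *Krt73* in 78.9% and 88.0%. The median depth was 12618 UMIs over all spots and 14094 in that region. Shares of spots therefore carried little information on place, and levels were used instead. Free RNA and RNA of a neighboring layer under the same spot cannot be told apart, and fewer IRS cells and less RNA per cell cannot be told apart either.

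All 8 genes rose from the superficial skin to the middle steps and fell again at the deep steps. The deep steps also hold muscle that lies below the follicles. Summed skeletal muscle markers had 1468 CPM at step 4 and 31744 at step 8. At steps 0 to 8, the level of *Tchh* was 5778 ± 1111, 6947 ± 1487, 12195 ± 2477, 21678 ± 2233, 23409 ± 1073, 16876 ± 1908, 10621 ± 1458, 7679 ± 734 and 8121 ± 593 CPM (SD, n = 4 slices). The level of the 7 keratins summed was 9505 ± 1418 at step 0, reached 35175 ± 612 at step 4 and was 16064 ± 807 at step 8. *Tchh* was thus already near its highest level at step 3, where the keratins summed were still well below theirs. This did not hold for each keratin. *Krt27* had 8473 ± 775 CPM at step 3 and 9095 ± 461 at step 4, so it was also near its highest level at step 3. When UMIs were summed per slice over steps 1 to 2 (superficial), 3 to 5 (middle) and 6 and over (deep), 8 of 8 members were higher in the middle than in the superficial class, with log2 fold changes from 1.16 ± 0.06 for *Tchh* to 1.58 ± 0.07 for *Krt28* (SE, 4 slices). The adjusted p by edgeR's quasi-likelihood test was 7.69e-15 or smaller for each. Of 13404 genes tested, 30% were higher in that comparison, and the median log2 fold change was 0.01 over all genes and 1.42 over the members. All 8 members were lower in the deep than in the middle class, against 25.5% of all genes tested, with a median of -0.80 over the members and 0.06 over all genes. The fall was uneven. It was -0.29 ± 0.06 for *Krt25* (edgeR, adjusted p = 8.10e-05) and -0.30 ± 0.06 for *Krt73* (edgeR, adjusted p = 0.000158), but -1.20 ± 0.06 for *Tchh*, -1.45 ± 0.08 for *Krt72* and -1.79 ± 0.08 for *Krt26*. Without the skeletal muscle region all 8 members still fell, by -0.16 ± 0.05 for *Krt25* and by -1.88 ± 0.08 for *Krt26*. With an epidermal region of 411 spots from 16 clusters in place of 12, deep against middle gave log2 fold changes of 0.27 for *Krt25* and 0.20 for *Krt73*, and 4 of 8 members fell. *Krt25* also did not pass with an epidermal region assigned without clusters (-0.11; edgeR, adjusted p = 0.0795), with relative depth (-0.14; edgeR, adjusted p = 0.104) or without a slice block (edgeR, adjusted p = 0.0512), and 7 members fell in each. In strip 2 alone 6 members fell and in strip 3 alone 7, where strips are 3 bands of tissue set on each slice, described below.

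**Figure D1:**
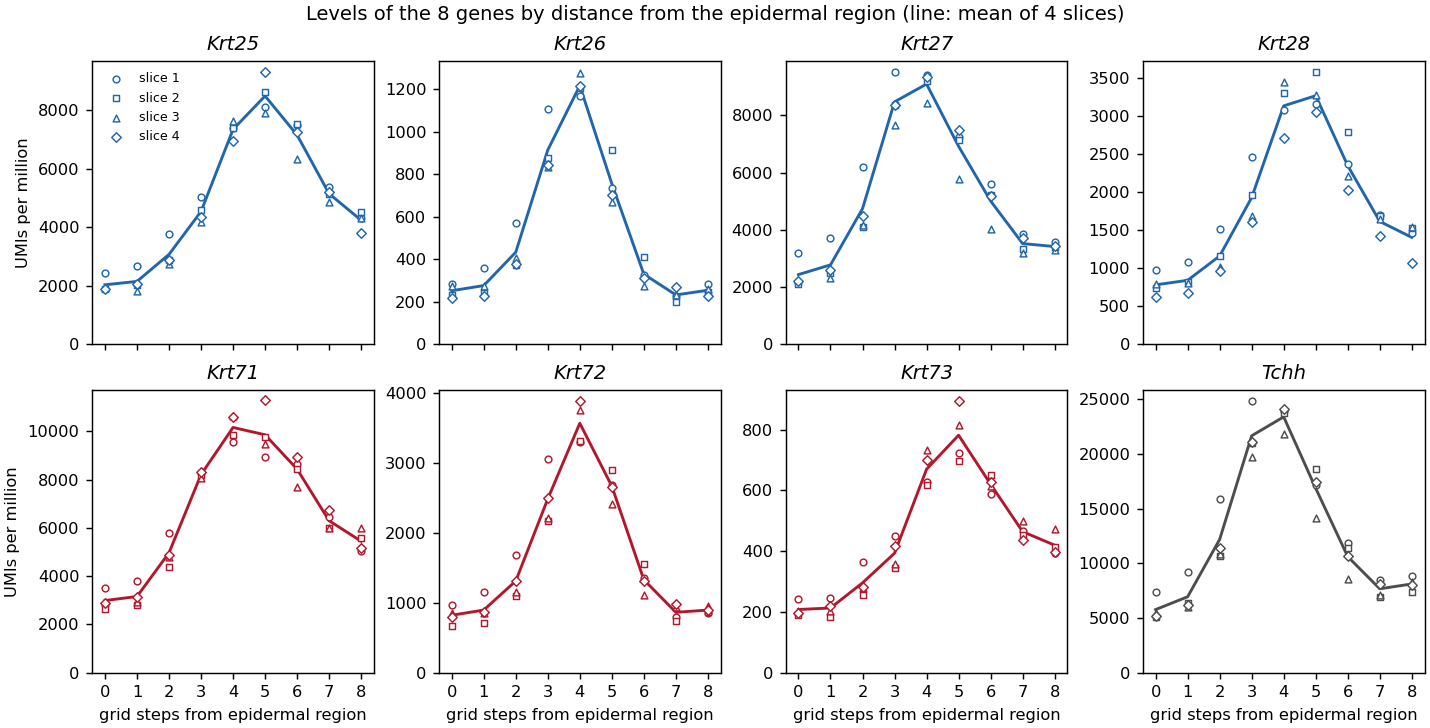
CPM of each gene (y axis, from 0) against grid steps from the epidermal region (x axis). Lines are means of 4 slices and symbols are single slices. *Krt26*, *Krt27*, *Krt72* and *Tchh* were highest at steps 3 to 4, and *Krt25* and *Krt73* were highest at step 5 in 4 of 4 slices.

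The members fell into a shallow and a deep set, named after their values were seen, and this split ran across the keratin types. The mean step of a gene, weighted by its level at steps 0 to 8, was 3.90 ± 0.12 for *Krt26*, 4.03 ± 0.14 for *Krt72*, 4.04 ± 0.09 for *Tchh* and 4.12 ± 0.10 for *Krt27* (SD, n = 4 slices). It was 4.47 ± 0.09 for *Krt71*, 4.52 ± 0.12 for *Krt28*, 4.65 ± 0.12 for *Krt73* and 4.68 ± 0.08 for *Krt25*. In each slice every shallow member lay nearer the epidermis than every deep one. Slice 1 lay nearest the epidermis for all 8 genes. Its *Tchh* was at step 3.90 against 4.04 to 4.11 in the other slices, and its *Krt25* was at 4.56 against 4.71 to 4.75. Of 28 pairs of members, 26 kept the sign of their difference in 4 of 4 slices. The exceptions were *Tchh* and *Krt72*, which differed by 0.06, -0.09, -0.01 and 0.05 steps, and *Krt25* and *Krt73*, which differed by 0.07, -0.00037, -0.03 and 0.08 steps. No pair could fall below p = 0.125 in the exact sign-flip permutation test over 4 slices (two-sided), and none of these 28 p-values, unadjusted, passed 0.05. The 4 members of the shallow set kept mean steps below those of the deep set in 14 of 14 settings of spots, region, distance, slice or strip of tissue, the one above included. The smallest gap was 0.268 steps. These settings reuse the spots from which the sets were named, so they show only how far the split depends on the processing.

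**Figure D2:**
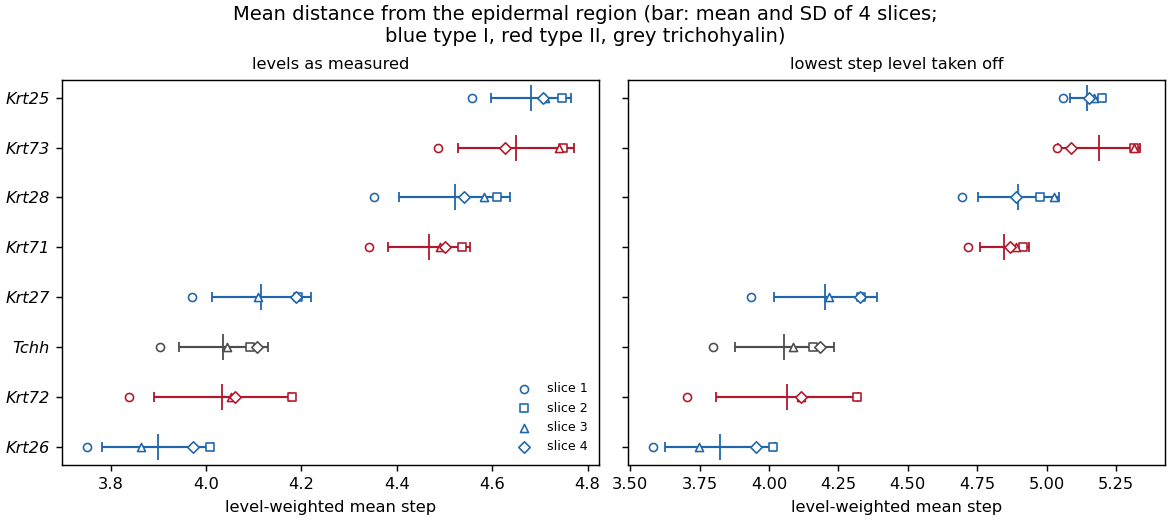
Level-weighted mean step of each gene (x axis, in grid steps), as measured on the left and after the lowest step level of each gene was taken off on the right. Symbols are slices and bars give the mean and SD of 4 slices. The shallow genes, *Krt26*, *Krt72*, *Tchh* and *Krt27*, lie at 3.90 to 4.12 and the deep genes at 4.47 to 4.68, with type I and type II genes in both.

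Summed by type, the keratins differed little in mean position. The sums mostly follow the genes with the most UMIs. *Krt71* held 70.6% to 82.6% of type II UMIs over the steps, and *Krt25* and *Krt27* together held most type I UMIs. The type II members summed lay at step 4.40 ± 0.10 and the type I members at 4.39 ± 0.10. The difference, type II minus type I, was 0.0075, 0.011, 0.0074 and -0.0069 steps in the 4 slices, a mean of 0.0048 ± 0.0080 (SD), with p = 0.25 in the exact two-sided sign-flip permutation test. Each slice was divided into 3 strips, set by its 3 largest bands of connected spots at steps 3 to 5. Each spot went to the nearest band, so a further piece of tissue would lie within a strip. The labels do not tie strips to mice. Strip 1 alone gave -0.053 and strip 3 alone gave 0.047, each with that sign in 4 of 4 slices. The ratio of type I to type II UMIs stayed between 1.36 ± 0.09 at step 0 and 1.46 ± 0.09 at step 5. From the superficial to the deep class its log2 changed by -0.042, -0.026, 0.019 and 0.0025, a mean of -0.012 ± 0.027 (exact permutation p = 0.5). The ratio varied more between slices than along the follicle. It was 1.52 and 1.49 over slices 1 and 2, and 1.36 and 1.35 over slices 3 and 4. Across spots of steps 2 to 6 with at least 10 UMIs on both sides, the SD of its log2 beyond counting error was 0.15. It was 0.57 for *Tchh* over keratins, 0.76 for *Krt25* over *Krt27* and 1.03 for *Krt73* over *Krt72*. Single type I genes over single type II genes varied more than the sums, with 0.36 for *Krt26* over *Krt72*, 0.41 for *Krt25* over *Krt71* and 0.46 for *Krt27* over *Krt71*. That minimum kept 871 to 971 spots of a slice for type I over type II and 256 to 347 for *Krt73* over *Krt72*, so these SDs rest on different spots.

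Within each type the shares of the members changed with depth. *Krt25* had 5032, 4589, 4179 and 4336 CPM at step 3 of the 4 slices, and 7479.7, 7527, 6348 and 7258 at step 6. *Krt27* had 9527, 8352, 7660.3 and 8351 at step 3, and 5593, 5220.3, 4017 and 5194 at step 6. The slices did not overlap between the depths for either gene, and the directions were opposite. The share of all genes without overlap between these steps was not counted. At steps 5 to 6 against 3 to 4, 27.9% of all genes tested were higher and 25.4% lower by edgeR. *Krt25* made up 28.7% ± 0.62 of type I UMIs at step 3 and 48.3% ± 1.13 at step 6, and *Krt27* made up 53.5% and 33.7%. The ratio of *Krt25* to *Krt27* was lowest at step 3, 0.54 ± 0.01, and rose to 1.44 ± 0.10 at step 6 and 1.47 ± 0.08 at step 7. Among the type II members, *Krt73* had 451, 346, 359 and 417 CPM at step 3 and 588, 651, 613 and 628 at step 6, with no overlap. *Krt72* had 3053, 2170.2, 2206 and 2498 at step 3 and 1351, 1547, 1106 and 1304 at step 6, again with no overlap. Their ratio, *Krt73* over *Krt72*, went from 0.16 ± 0.01 at step 3 to 0.55 ± 0.08 at step 7. Between steps 4 and 7 the share of type II UMIs went from 70.6% to 82.6% for *Krt71*, from 4.65% to 6.11% for *Krt73* and from 24.7% to 11.3% for *Krt72*.

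**Figure D3:**
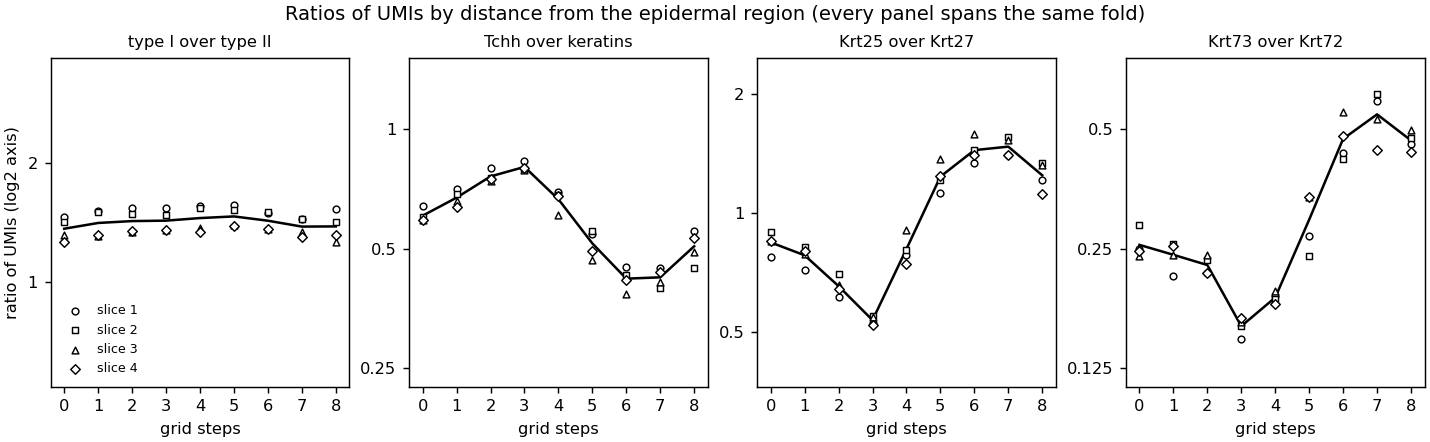
Ratio of UMIs (y axis, log2 scale) against grid steps from the epidermal region (x axis) for type I over type II, *Tchh* over the 7 keratins, *Krt25* over *Krt27* and *Krt73* over *Krt72*. Lines are means of 4 slices, symbols are slices, and all panels span the same fold. The first ratio stays at 1.36 to 1.46, whereas the others change with depth.

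Candidate partners were compared by the same measure. The ratio of *Krt26* to *Krt72*, both shallow, went from 0.37 ± 0.03 at step 3 to 0.25 ± 0.01 at step 6, and the slices did not overlap between these steps. The ratio of *Krt28* to *Krt73*, both deep, went from 4.91 ± 0.82 at step 3 to 3.78 ± 0.47 at step 6, and here the slices did overlap. It was 3.72 ± 0.40 at step 0 and 3.34 ± 0.48 at step 8. *Krt25* over *Krt71* went from 0.55 ± 0.04 at step 3 to 0.86 ± 0.04 at step 5, and *Krt27* over *Krt71* from 1.03 ± 0.08 to 0.71 ± 0.09 between the same steps. *Krt71* thus lost on *Krt25* and gained on *Krt27* between these steps. Across the 1456 to 1751 spots of a slice, the correlation of log1p counts per 10000 UMIs was highest between *Tchh* and *Krt27*, with a mean r over slices of 0.91. It was 0.87 between *Krt25* and *Krt71*, 0.84 between *Krt27* and *Krt71* and 0.76 between *Krt26* and *Krt72*. It was lowest between *Krt26* and *Krt73* (0.34) and between *Krt25* and *Krt26* (0.35). The spots of a slice share a library and neighboring spots share follicles, and *Krt26* and *Krt73* have the fewest UMIs, so these values are descriptions.

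*Tchh* lay shallower than the keratins as a group. The difference in mean step, *Tchh* minus keratins, was -0.342, -0.383, -0.375 and -0.323 in the 4 slices, a mean of -0.36 ± 0.03 (SD), in 4 of 4 slices, with p = 0.125 in the exact two-sided sign-flip permutation test, the smallest p that 4 slices allow. The ratio of *Tchh* to keratin UMIs was 0.605 ± 0.025 at step 0, highest at step 3 (0.804 ± 0.020), and lowest at steps 6 and 7 (0.420 ± 0.027 and 0.423 ± 0.023). Its log2 changed from the superficial to the deep class by -0.701, -0.777, -0.822 and -0.710, with no overlap between the classes and a mean of -0.75 ± 0.06 (exact permutation p = 0.125). Against single keratins the distance was uneven. *Tchh* lay 0.64 ± 0.03 steps nearer the epidermis than *Krt25*, but 0.08 ± 0.02 steps nearer than *Krt27*, and 0.14 ± 0.04 steps deeper than *Krt26*. The ratio of *Tchh* to *Krt27* lay between 2.12 ± 0.05 and 2.58 ± 0.03 at all steps, and that of *Tchh* to *Krt25* went from 4.78 ± 0.17 at step 3 to 1.48 ± 0.10 at step 6. With the lowest level of each gene taken off, the difference was -0.65 ± 0.07 steps. In the 3 strips of tissue, taken alone, the difference was -0.30, -0.31 and -0.37 steps.

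A comparison of steps 5 to 6 with steps 3 to 4, added after the levels had been seen, tested the change at this depth gene by gene. Of 13188 genes tested with edgeR, 27.9% were higher and 25.4% lower at steps 5 to 6. The members split, with 2 higher, 4 lower and 2 that did not pass the test. *Krt25* and *Krt73* were higher by 0.28 ± 0.06 and 0.29 ± 0.06 (log2, SE; edgeR, adjusted p = 0.000165 and 0.000305). *Krt27* (-0.66 ± 0.07), *Krt72* (-0.71 ± 0.08), *Tchh* (-0.82 ± 0.07) and *Krt26* (-1.09 ± 0.08) were lower, with adjusted p by edgeR of 1.87e-08 or smaller. *Krt28* gave 0.04 ± 0.07 and *Krt71* -0.11 ± 0.06 (edgeR, adjusted p = 0.655 and 0.114). *Krt25* gave 0.04 in strips 1 and 3 alone, where 0 members passed as higher, and 0.95 with the epidermal region of 411 spots, where 5 members were higher and 0 lower by edgeR. With that region the direction turned for *Krt72* (0.44; edgeR, adjusted p = 8.07e-05) and for *Krt71* (0.46), and for *Krt26* (0.19), *Krt27* (0.10) and *Tchh* (0.045), which did not pass. The cause was not tested. In strip 2 alone 3 members were higher, *Krt25* (0.72), *Krt73* (0.85) and *Krt28* (0.68), and *Krt28* was lower in strips 1 and 3 (-0.35 and -0.32). Without a slice block *Krt25* did not pass (edgeR, adjusted p = 0.0582). The split by mean step was kept in each strip and with that region.

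**Figure D4:**
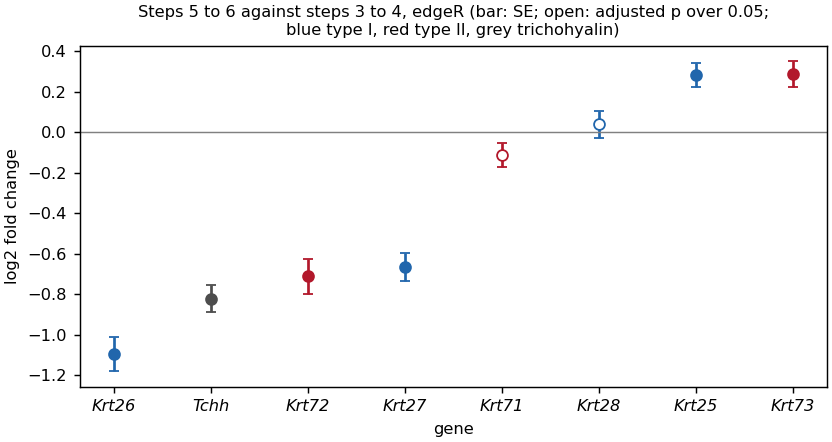
Log2 fold change of each member (y axis) between steps 5 to 6 and steps 3 to 4, by edgeR on sums of 4 slices, with SE as bars. Filled points passed an adjusted p of 0.05. *Krt26*, *Tchh*, *Krt72* and *Krt27* lie below 0, *Krt71* and *Krt28* near it, and *Krt25* and *Krt73* above it.

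Levels were then compared across regions, which are clusters of spots made without the 8 genes and named from marker lists. The other genes of the follicle made these clusters, so the regions are not independent of position. In the region led by *Krt32* and *Krt83*, named hair shaft (662 spots), 5 members had their highest level, with *Krt25* at 10508 ± 990, *Krt71* at 12301 ± 400, *Krt28* at 4563 ± 481, *Krt72* at 4624 ± 202 and *Krt73* at 968 ± 55 CPM (SD, n = 4 slices). In an unnamed region led by keratin-associated protein genes such as *Krtap4-9* and *Krtap28-13* (666 spots), *Tchh* was highest, with 34748, 32002, 27240 and 32203 CPM in the 4 slices against 25741, 24608, 23073 and 25733 in the hair shaft region. *Krt27* and *Krt26* were highest there as well, at 11433 ± 910 and 1622 ± 195. *Krt25* was at 47.3% of its highest regional mean in that region, while *Tchh*, *Krt26* and *Krt27* were at theirs.

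In the deep regions the members lay apart. In the region of 443 spots led by the pigment genes *Mlana* and *Dct* together with *Krt35*, a keratin of the lower hair shaft, *Krt25* had 8773 ± 635 and *Krt73* 814 ± 101 CPM. *Krt26* there was at 151, 155, 183 and 196 in the 4 slices, below the 217 to 285 of the epidermal region. *Krt73* over *Krt72* was 0.91 ± 0.03 in that region and 0.12 ± 0.004 in the *Krtap4-9* region. In the matrix region of 129 spots led by *Wif1* and the proliferation gene *Top2a*, *Krt26* was at 73.2 ± 9.2, *Krt72* at 255 ± 15 and *Tchh* at 2543 ± 286, which were their lowest regional means, and *Krt25* over *Krt27* was 2.02 ± 0.23. *Tchh* over keratins was 0.30 ± 0.01 there and 0.90 ± 0.04 in the *Krtap4-9* region, whereas type I over type II was 1.48 ± 0.07 and 1.43 ± 0.10. The *Wif1* region took its name from the matrix markers, but *Wif1* itself stands in the marker list of the dermal papilla. How much papilla these spots held was not tested. The skeletal muscle region, below the follicles, still held *Krt25* at 4763 ± 108 and *Tchh* at 8993 ± 1179, above the epidermal region's 2028 ± 280 and 5778 ± 1111. How much of this came from follicle bases near the muscle or from free RNA was not tested.

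**Figure D5:**
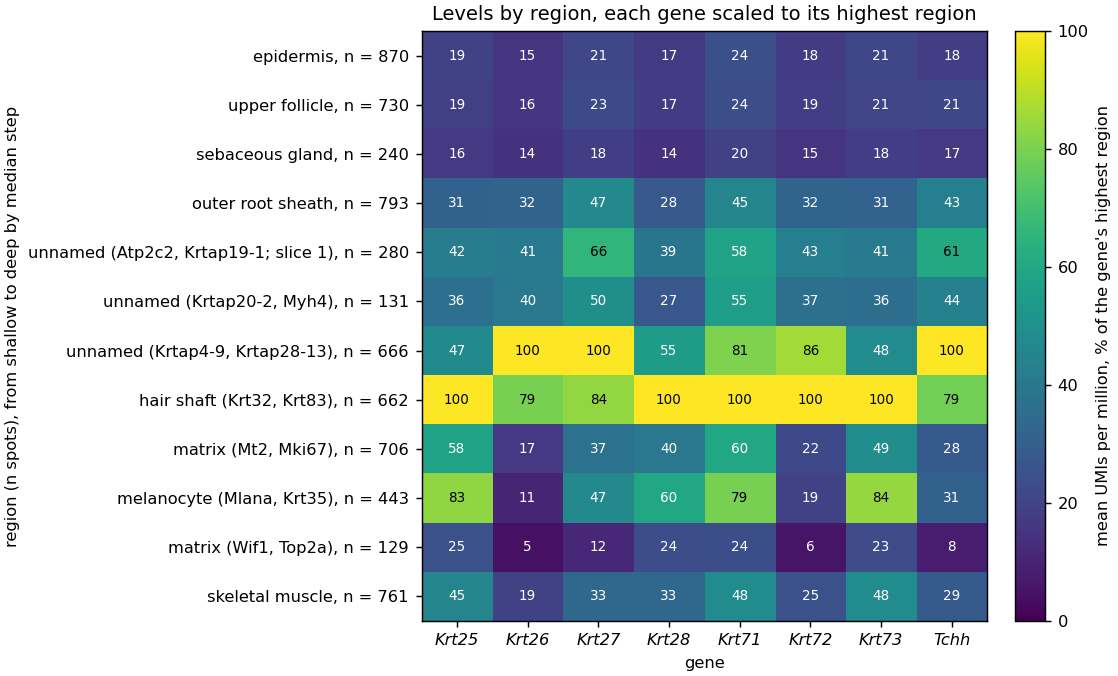
Mean CPM of each gene (columns) in each region (rows, ordered by median step, with the number of spots), as a percent of the gene's highest region. *Tchh*, *Krt26* and *Krt27* are at 100 in the *Krtap4-9* region and the other 5 genes in the hair shaft region, and *Krt25* and *Krt73* are at 83.5 and 84.1 in the *Mlana* region, where *Krt26* is at 10.5. Means are over the slices with at least 10 spots of a region.

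The hair shaft and matrix regions together were compared with the outer root sheath region, the outer layer of the follicle that should lack the 8 genes. The outer root sheath region held *Krt25* at 3100, 3536, 2986 and 3391 CPM, below each of the hair shaft region's 4 values, and *Tchh* at 12349 to 14715. Whether this came from IRS under the same spots was not tested. By edgeR, 7 of 8 members were higher in the hair shaft and matrix regions, against 29.1% of 12549 genes tested. *Krt25* was higher by 1.18 ± 0.08, *Krt28* by 1.14 ± 0.07 and *Krt73* by 1.06 ± 0.07 (log2, SE). *Krt71* and *Krt72* were each higher by 0.66 ± 0.07, *Krt26* by 0.34 ± 0.07 and *Krt27* by 0.16 ± 0.07 (edgeR, adjusted p = 0.0354 for *Krt27*). The hair shaft region had *Tchh* at 24789 CPM, above the outer root sheath region's 13589. The matrix regions of 706 and 129 spots had it at 8986 and 2543, below that level. *Krt26*, *Krt27* and *Krt72* were likewise above their outer root sheath level in the hair shaft region and below it in the matrix regions. In the matrix region of 129 spots each of the 8 members lay below its outer root sheath level, *Krt25* at 2627 against 3253 CPM. In that of 706 spots *Krt25*, *Krt28*, *Krt71* and *Krt73* lay above it. The unnamed *Krtap4-9* region, where *Tchh*, *Krt26* and *Krt27* were highest, was not in the comparison. *Tchh* did not pass, at 0.09 ± 0.07 (edgeR, adjusted p = 0.255). It did pass by edgeR in 4 of 12 alternatives, with regions assigned per spot without clusters (0.51, adjusted p = 1.34e-07), with 16 clusters (0.27, adjusted p = 0.000350), with spots thinned to 5000 UMIs (0.21, adjusted p = 0.00456) and with no filter on low counts (0.14, adjusted p = 0.00681). Slice 1 gave 58 of the 793 outer root sheath spots. The unnamed cluster led by *Atp2c2* and *Krtap19-1*, mostly of slice 1, was not in the comparison, although *Atp2c2*, *Slc45a3*, *Slc4a1*, *AU018091*, *Gpx2* and *Gabrp* were among the 10 leading genes of both. *Krt27* lost its call in 7 of 12 alternatives, among them DESeq2 (adjusted p = 0.149) and, by edgeR, the removal of slice 2, 3 or 4 (adjusted p = 0.103, 0.0939 and 0.0556).

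Other genes of the IRS and of trichohyalin processing spread along the same axis. Of 14 listed genes, 13 were tested, and 9 were higher and 4 lower in the middle than in the superficial class by edgeR, against 30% and 30.2% of all genes. *Padi3*, which encodes a deiminase that acts on trichohyalin, was higher by 1.45 ± 0.07, *Tgm3*, a transglutaminase that cross-links it, by 1.19 ± 0.08, and *Prss53*, a serine protease of the IRS, by 1.37 ± 0.06. Those lower were the barrier genes *Klk5*, *Klk7*, *Spink5* and *Casp14*, which the epidermis also expresses and which peaked at steps 0 to 2 in every slice. At steps 5 to 6 against 3 to 4, 3 of the 13 were higher, against 27.9% of all genes. The transcription factor genes *Cux1*, *Dlx3* and *Gata3* were higher by 0.68 ± 0.06, 0.34 ± 0.06 and 0.16 ± 0.05, although *Gata3* was highest at step 0 in 4 of 4 slices. Another 9 were lower, against 25.4%, from *Tgm3* at -0.32 ± 0.08 to *Tchhl1* at -2.47 ± 0.09, and *Prss53* gave -0.09 ± 0.06. *Tchhl1*, a relative of trichohyalin of the same S100 fused-type family, was highest at step 3 in 4 of 4 slices, with a mean step of 3.29 ± 0.11 against 4.04 ± 0.09 for *Tchh*. *Cdsn*, encoding corneodesmosin of the IRS and cornified layer, was also highest at step 3 in 4 of 4 slices, with a mean step of 2.85 ± 0.09. The medulla genes *Foxq1* (-0.25 ± 0.07), *Krt75* (-0.61 ± 0.07) and *Padi3* (-0.46 ± 0.08) were lower at steps 5 to 6, 3 of 3 listed. Of these, *Padi3* stands in both lists, and *Krt75* also stands in the marker list of the companion layer, another layer of the follicle. All 3 were higher in the middle than in the superficial class, lower in the deep class, and higher in the hair shaft and matrix regions than in the outer root sheath region by edgeR. For the 13 genes the deep class gave 1 higher (*Cux1*, 0.35 ± 0.05), 10 lower and 2 that did not pass, with a median of -0.90, against 31.4% of all genes higher and 25.5% lower. The hair shaft and matrix regions gave 6 higher, 6 lower and 1 that did not pass, with a median of 0.09, against 29.1% and 28.9% of all genes.

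Genes most like the keratins and most like *Tchh* across spots were partly shared. Among 11313 genes with a UMI in at least 5% of spots, *Padi3* (mean r = 0.74 over 4 slices), *Crym* (0.73), *S100a3* (0.72), *Prr9* (0.72) and *Krt75* (0.72) were nearest to the 7 keratins summed, followed by *Crnn*, *Gjb2*, *Tm4sf1*, *Krtap11-1* and *Ly6g6g* (0.61 to 0.66). *Prr9* stood nearest to *Tchh*, at 0.89 to 0.91 in single slices, followed by *Crym* (0.80), *Crnn* (0.78), *Krtap8-1* (0.77), *Krtap7-1* (0.76), *Psors1c2* (0.76), *Padi3* (0.74), *Krt81*, *Krt33a* and *Lrrc15* (0.72 each). *Padi3*, *Crym*, *Prr9* and *Crnn* stood in both lists of 10. *Prr9* had its highest level at step 3 or 4, with a mean step of 3.80 ± 0.09, and *S100a3*, encoding a calcium-binding protein of the hair cuticle, lay at 4.39 ± 0.12. Summed levels of the 8 hair shaft markers measured were also highest at step 4 (13227 CPM), and those of the 8 matrix markers at step 6 (812), so the members' profiles moved together with the makeup of the follicle at each depth. Its part in their order was not tested.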

How the data were processed

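Dorsal skin sections were profiled by Visium spatial transcriptomics, which captures polyA RNA on barcoded spots. The UMI counts were deposited by the authors per gene and spot, for spots over tissue, after Space Ranger 2.0.1 against mm10 per the labels and methods, with no normalization. Of 6420 spots, 6411 had at least 250 detected genes and entered the analysis, without doublet calling, since a spot can hold several cells. The members and gene lists were chosen with earlier results of these data known. The genes named are the 8 members, listed IRS, processing and medulla genes, region markers, and the 10 genes with the highest mean correlation with the keratins and with *Tchh*.

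Spots were clustered with Seurat 5.3.0 in R 4.3.3 without the 8 members (2000 variable genes, 30 principal components, 20 neighbours, 12 clusters). A region was named when at least 4 listed markers exceeded the other spots by a log2 fold of 1 (pseudocount 5 CPM) and a marker stood among its 20 leading genes. Steps were counted on the hexagonal grid, and levels, ratios and mean steps used steps 0 to 8. The 109 deeper spots entered only the deep class, steps 6 and over. UMIs were summed per slice and class and tested with edgeR 4.0.16 (quasi-likelihood, TMM, low-count filter, slice as block, Benjamini-Hochberg over all genes tested, threshold 0.05). The slice is a block because its sums come from the same sections. The mean correlation of deviations within a slice was 0.117 to 0.284 over 13404 genes. DESeq2 1.42.0, other scaling, filters, spots, distances and regions, and each slice left out in turn were alternatives. The strips, steps 5 to 6 against 3 to 4, and the removal of the lowest level were chosen after seeing the data. Promoters came from RefSeq (GRCm38.p6), where all 8 genes matched. The statistics were tested on simulated data with known changes, where most changed genes were recovered and the share of false calls was somewhat above the threshold.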

Additional observations from a re-analysis of the deposited data

Results flagged for a closer look

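Single slices stood apart in 11 of 221 sets of 4 slice values examined, with a gap to the nearest value past Dixon's critical value. Chance gives about 1 in 20 such sets, which is about the share seen here. The sets are not independent, since neighboring steps and related genes come from the same slices. Slice 1 was the high value in 8 of the 11 sets. There *Tchh* reached 7428 CPM at step 0, 9169 at step 1 and 15884 at step 2, against at most 5432, 6347 and 11374 in the other slices. *Krt25* reached 2446 at step 0 and 3782 at step 2, *Krt27* 3169 at step 0, and *Krt26* 572 at step 2 and 1106 at step 3. Slice 1 also had the most UMIs per spot, and the part of this in the higher superficial levels was not tested. In slice 3 *Tchh* was low at step 4, at 21812 against 23769 to 24097, as was *Tchh* over keratins, at 0.608 against 0.680 to 0.694. In slice 4 *Krt28* was low at step 8, at 1068 against 1466 to 1544.

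The difference in mean step between type II and type I keratins had opposite signs in strips of tissue. It was -0.053 steps in strip 1, negative in 4 of 4 slices, and 0.047 in strip 3, positive in 4 of 4 slices. The labels do not tie strips to mice, and the difference between strips was not tested.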

How the results depend on the processing

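*Tchh* lay nearer the epidermis than the keratins and *Tchh* over keratins fell with depth under every alternative run, and without 1 slice the values were -0.367 to -0.347 steps and -0.770 to -0.729 (log2). The type II minus type I step turned negative with 16 clusters (-0.022), relative depth (-0.0024 relative units), strip 1 (-0.053), strip 2 (-0.017) and without muscle (-0.0070), and was 0.0026 to 0.0087 without 1 slice. The type I over type II change turned positive in the same settings, at 0.033, 0.029, 0.076, 0.041 and 0.00036, and was -0.022 to -0.0017 without 1 slice. Neither had a settled sign.

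All 8 members were higher in the middle than the superficial class under every alternative. With 16 clusters, whose epidermal region held 411 in place of 870 spots and so moved every step, 4 members were lower in the deep class, with *Krt25* at 0.27 and *Krt73* at 0.20. At steps 5 to 6 against 3 to 4 this setting gave 5 higher and 0 lower, with *Krt26* at 0.19, *Krt27* at 0.10, *Krt71* at 0.46, *Krt72* at 0.44 and *Tchh* at 0.045. Strips 1 and 3 gave 0 higher each, with *Krt28* at -0.35 and -0.32 and *Krt73* at -0.091 in strip 1, and *Krt71* was 0.14 in strip 2. *Krt71* was 0.014 with a cluster-free epidermal region, and *Krt28* was between -0.036 and 0.079 without 1 replicate, negative without replicate 2 or 4. The cause was not tested for these. Without the replicate block 1 member was higher there, 7 were lower in the deep class (*Krt25* adjusted p = 0.0512 by edgeR), and 6 were higher in the hair shaft and matrix regions. That region count was 6 to 8 over the alternatives. Without 1 slice the depth counts were 8, 8, 2 higher and 4 to 5 lower, and the region count 6 to 7. *Krt26* and *Krt73* had the fewest UMIs and the widest counting error per spot.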
